A study of Mus musculus with 48 samples.

Results

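The comparison described here set skin of mice treated with jak3i, the labels' name for an inhibitor of the kinase JAK3, against skin of mice given phosphate buffered saline by pump (PBS pump), both at week 13. Its members are the 3 jak3i arrays and the 3 PBS pump arrays of that week by title, 6 of the 48 arrays of the series. All mice were of the C3H/HeJ strain, which can develop alopecia areata, an autoimmune loss of hair, and the labels give 12 to 13 weeks of treatment for both groups. From what is known of the study, the inhibitor was tofacitinib, it was delivered by pump, and the mice had been grafted with skin of affected mice to bring on the disease before treatment. Dose, sex and age are not given in the labels used here. The series also holds week 13 skin of mice given jak12i (an inhibitor of JAK1 and JAK2) with its PBS gavage group, il15rb (an antibody to the interleukin 15 receptor beta chain) with its PBS ip group, and the same pump groups at week 6, with 3 arrays in each week 13 group, 5 in week 6 jak3i and 3 in week 6 PBS pump. The series' design text calls the arrays biological replicates without naming animals. The p-values therefore rest on the spread between samples within groups, pooled over 47 arrays of 13 groups and not over these 6 alone.

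In alopecia areata, CD8 T cells that carry the NKG2D receptor gather around the hair follicle and release interferon gamma. JAK1 and JAK3 pass on the signal of cytokines whose receptors hold the common gamma chain, among them interleukin 2 and interleukin 15, which feed T cells and natural killer cells. JAK1 and JAK2 pass on interferon gamma, and JAK1 and TYK2 type I interferon, and both routes end in STAT factors that enter the nucleus and switch on genes such as chemokines, antigen presentation genes and antiviral genes.

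Interferon target genes fill 6 of the 10 largest falls described below. The promoters shown are of 4 interferon targets that fell, picked by hand. Igtp and Cxcl10 are among those 6 falls, and Irf1 and Socs1 are not. STAT dimers bind the GAS motif, searched here as TTCNNNGAA, and IRF factors bind interferon response elements, searched here as GAAA, any 2 bases and GAAA again (the IRF motif), both read on either strand. Each run below is the 250 bases before the gene's start, 5′ to 3′ on the gene's strand, from RefSeq on GRCm38.p6, and capitals mark the motif matches. Irf1 (an interferon induced transcription factor) lies at chr11:53769764-53770013 on the plus strand, Igtp (an interferon gamma induced GTPase) at chr11:58199306-58199555 on the plus strand, Cxcl10 (a chemokine for T cells) at chr5:92348890-92349139 on the minus strand and Socs1 (a feedback inhibitor of JAK kinases) at chr16:10785537-10785786 on the minus strand.
Irf1: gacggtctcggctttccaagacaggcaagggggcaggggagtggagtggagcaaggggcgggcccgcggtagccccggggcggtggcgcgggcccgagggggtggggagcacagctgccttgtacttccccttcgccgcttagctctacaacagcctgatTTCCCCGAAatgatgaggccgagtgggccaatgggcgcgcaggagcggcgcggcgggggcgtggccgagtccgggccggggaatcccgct
Igtp: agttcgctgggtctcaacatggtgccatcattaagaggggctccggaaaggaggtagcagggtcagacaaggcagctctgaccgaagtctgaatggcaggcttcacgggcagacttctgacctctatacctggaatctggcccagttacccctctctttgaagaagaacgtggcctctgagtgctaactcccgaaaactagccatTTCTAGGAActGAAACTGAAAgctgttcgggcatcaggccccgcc
Cxcl10: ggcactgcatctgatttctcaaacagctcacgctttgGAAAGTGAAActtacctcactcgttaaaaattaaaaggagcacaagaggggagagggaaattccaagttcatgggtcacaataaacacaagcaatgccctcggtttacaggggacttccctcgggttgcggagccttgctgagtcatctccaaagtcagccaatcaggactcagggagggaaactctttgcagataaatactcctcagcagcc
Socs1: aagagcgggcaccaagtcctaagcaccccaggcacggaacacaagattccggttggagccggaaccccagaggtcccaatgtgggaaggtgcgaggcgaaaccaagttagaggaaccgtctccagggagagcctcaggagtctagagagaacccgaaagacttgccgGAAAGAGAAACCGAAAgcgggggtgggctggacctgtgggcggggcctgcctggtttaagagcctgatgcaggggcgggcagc
The Irf1 window held a GAS match 90 bases before the start, and the Igtp window held one of each motif, 45 and 34 bases before the start. Cxcl10 held the IRF motif 213 bases before the start, and Socs1 held 2 overlapping copies, at 83 and 77 bases. Among the 16 genes of the interferon gamma list with a promoter in the table, 37.5% held GAS and 56.2% held the IRF motif. Among the 15 of the type I interferon list the shares were 20.0% and 46.7%. Among 10907 genes tested with a promoter they were 7.25% and 3.07%. Among the 671 genes with a promoter that were lower in jak3i skin (adjusted p under 0.05) they were 9.84% and 8.79%. Among the 1018 that were higher they were 7.37% and 2.36%. Both lists were written by hand, and their shares do not describe the genes that fell as a whole. These matches are a description of letters and not of binding.

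Of 13648 genes tested, 2183 (16.0%) passed an adjusted p of 0.05 in jak3i against PBS pump, 1320 higher (9.67%) and 863 lower (6.32%), and 4068 had an unadjusted p under 0.05. Values are log2 signals, so a difference of 1 is a doubling, and each difference is the jak3i mean minus the PBS pump mean with its SE from a limma fit across all groups. The falls were steeper than the rises. Past 4-fold, 77 genes were lower and 21 higher, and past 8-fold 21 were lower and 1 higher, while the median of all genes tested was 0.03. The 3 jak3i arrays and the 3 PBS pump arrays did not overlap for 4056 genes (29.7%). Arrays of 1 group correlated at 0.976 to 0.989 over all probe sets in these groups, and the medians of the 6 arrays lay between 6.71 and 6.73. Keratin and collagen genes that define skin were high in all 6 arrays, with Krt10, Krt14, Krt5 and Lor between 12.71 and 14.36 and Col1a1 between 9.91 and 11.83. PBS pump replicate 2 stood apart by a low level of skeletal muscle genes, so counts are also given without it, where 1251 genes were higher and 748 lower. Of the 1320 genes higher and 863 lower, 957 and 658 still passed without that array.

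**Figure D1:**
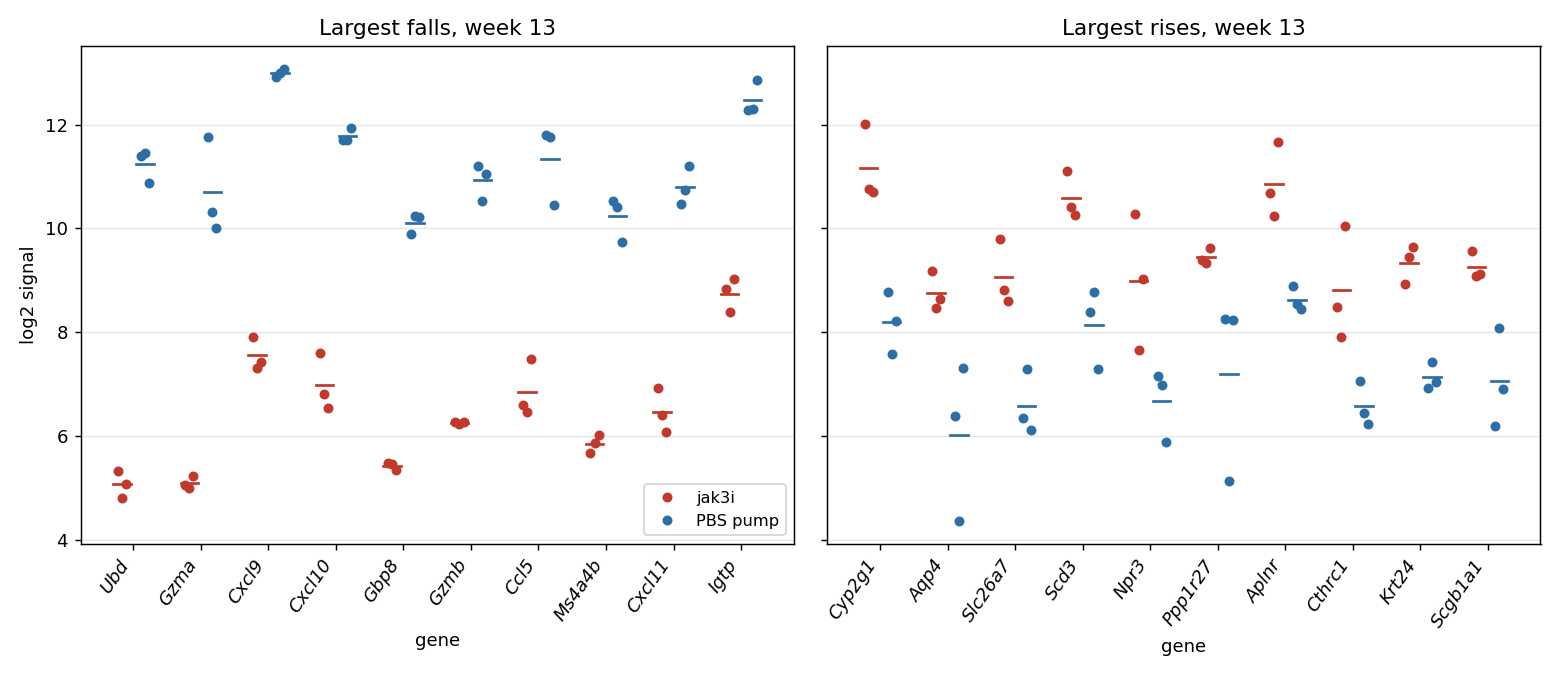
Log2 signal (vertical axis) of the genes with the 10 largest falls (left panel) and the 10 largest rises (right panel) among genes called at week 13 whose arrays do not overlap. Points are single arrays, 3 jak3i (red) and 3 PBS pump (blue), and short lines are group means. The jak3i points of the falling genes sit between 4.81 and 9.02, each gene below its PBS pump points, while Aqp4 and Ppp1r27 among the rises have 1 PBS pump array far below the other 2.

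**Figure D2:**
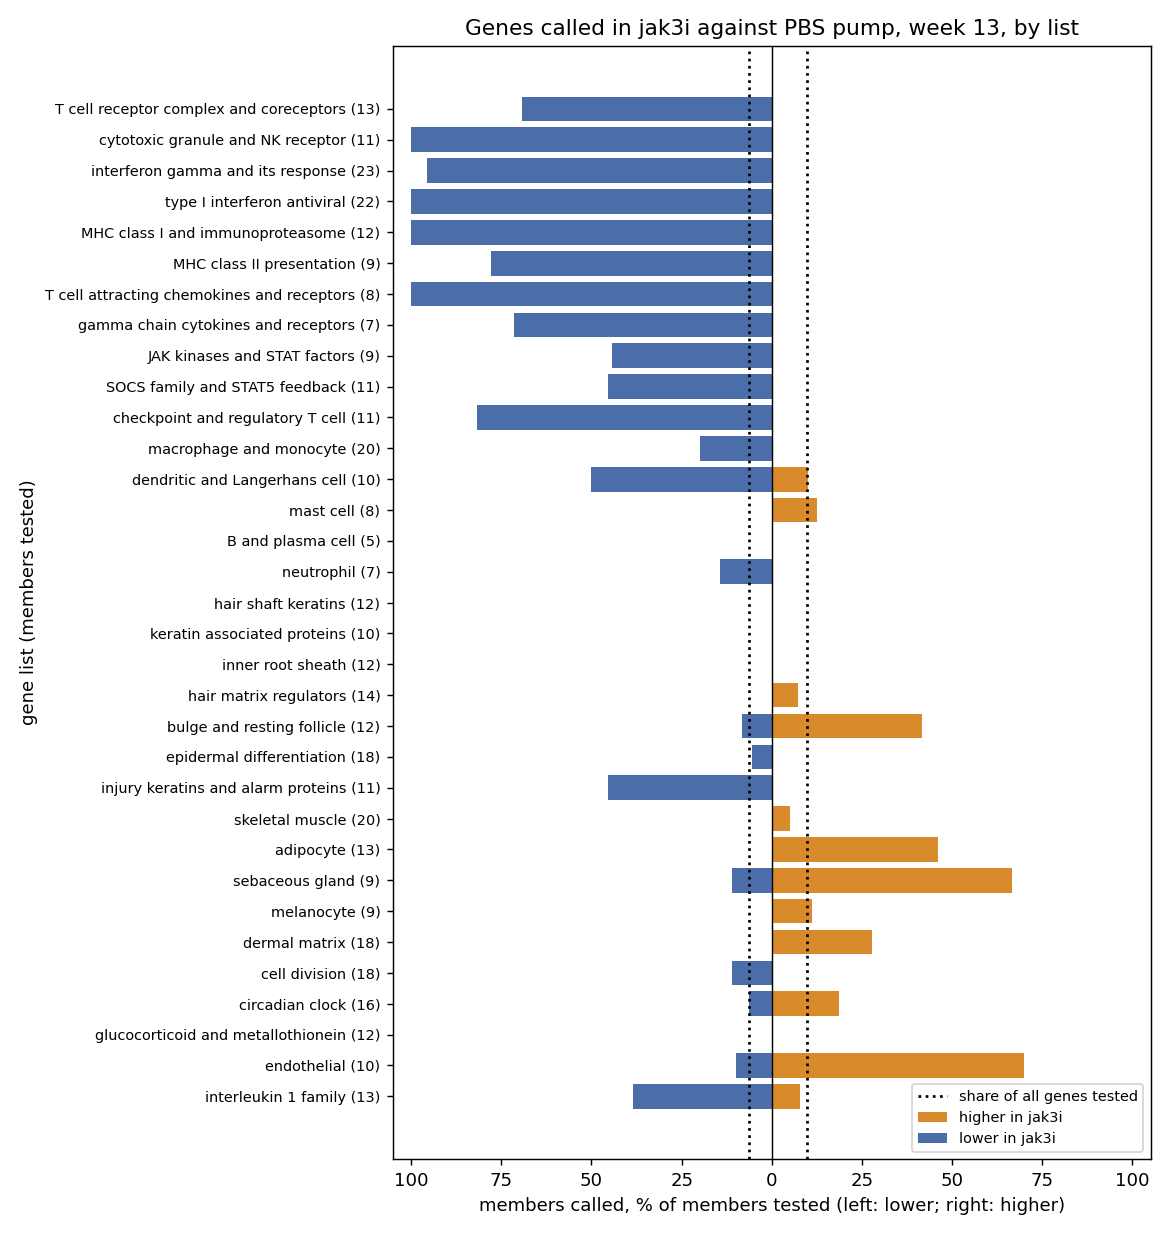
Share of the tested members of each gene list (vertical axis, number tested in brackets) called lower (blue, leftward) or higher (orange, rightward) in jak3i against PBS pump at week 13, in percent. Dotted lines mark the shares over all genes tested, 6.32% lower and 9.67% higher. The lists were written with earlier results of these data known, so the bars are a description. Bars of the cytotoxic, type I interferon, MHC class I and chemokine lists reach 100% on the lower side, and 3 hair fibre lists have no bar.

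Genes of cytotoxic lymphocytes were among the lowest in jak3i skin. All 11 tested members of the cytotoxic granule and NK receptor list fell, with a median of -2.24. So did 9 of 13 members of the T cell receptor and coreceptor list, with a median of -0.70 (6.32% of all genes were lower). Here and below, lists were written with earlier results of these data known, so their counts are a description and not a test. Gzmb, the granzyme with which killer cells induce death of their targets, measured 6.27, 6.23 and 6.26 in jak3i skin, against 11.21, 10.52 and 11.05 in PBS pump skin. The jak3i arrays were almost equal and lay more than 4 units below every PBS pump array, a difference of -4.67 (SE 0.40, adjusted p = 2.1e-10). Gzma, a second granzyme, measured 5.05, 4.99 and 5.24 in jak3i skin, against 11.77, 10.32 and 10.01 in PBS pump skin. Its jak3i mean lay below the level taken as background (5.38, the highest lower quartile of the week 13 arrays), so its fall is a lower bound of at least 40.0-fold (adjusted p = 1.2e-10). Prf1, which encodes the pore protein perforin, measured 6.50, 7.11 and 6.72 in jak3i skin, against 8.59, 8.77 and 8.17 in PBS pump skin, a 3.33-fold fall. Its other probe set differed by 0.005. Nkg7, a granule membrane protein of killer cells, measured 7.19, 7.34 and 7.01 in jak3i skin, against 10.01, 10.16 and 9.34 in PBS pump skin, a 6.28-fold fall. In both genes the groups were apart with at least 1 unit between their nearest arrays.

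Klrk1 encodes NKG2D, the activating receptor of the disease-linked T cells. It measured 5.33, 5.07 and 5.34 in jak3i skin, against 7.76, 7.57 and 6.74 in PBS pump skin. All 3 jak3i arrays lay at background, so the fall is at least 3.94-fold (adjusted p = 1.7e-07). Klrd1, a partner of NKG2 receptors, fell by 2.79 (SE 0.28) and Ctsw, a protease of killer cells, fell by 2.09 (SE 0.21). Cd8a, the coreceptor of killer T cells, measured 6.71, 6.72 and 6.69 in jak3i skin, against 9.16, 9.27 and 8.89 in PBS pump skin. The difference was -2.40 (SE 0.20, adjusted p = 1.2e-10), and 4 other probe sets of the gene differed by -4.11 to -0.26. Cd8b1, its partner chain, fell by 2.43 (SE 0.22). Among the CD3 chains of the receptor complex, Cd3d fell by 1.98 (SE 0.25) and Cd3g by 1.95 (SE 0.25), and the signalling adaptor Lat fell by 1.36 (SE 0.18). Cd4, the coreceptor of helper T cells, chosen after its values were seen, differed by -0.07 and did not pass. Ms4a4b, a T cell membrane protein, measured 5.66, 5.86 and 6.02 in jak3i skin, against 10.53, 10.42 and 9.75 in PBS pump skin, a fall of 20.9-fold. Its other probe set differed by -0.46. These are whole-skin measurements, in which fewer cells of a type and less RNA per cell cannot be told apart.

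Chemokines that draw T cells and their receptors had the lowest list median of the 33 lists, -3.90. All 8 tested members were lower (6.32% of all genes were). Cxcl9, Cxcl10 and Cxcl11 are interferon gamma induced ligands of the receptor CXCR3. Cxcl9 measured 7.92, 7.32 and 7.42 in jak3i skin, against 12.91, 13.00 and 13.08 in PBS pump skin. Cxcl10 measured 7.60, 6.80 and 6.54 in jak3i skin, against 11.71, 11.70 and 11.94 in PBS pump skin. The PBS pump arrays lay close together for both genes, and the differences were -5.45 (SE 0.74, adjusted p = 1.2e-06) and -4.80 (SE 0.47, adjusted p = 2.6e-09). Cxcl11 fell 20.2-fold, with 6.08 to 6.92 in jak3i skin and 10.48 to 11.21 in PBS pump skin. Its other probe set differed by -1.65, and that of Cxcl9 by -3.03. Ccl5, a chemokine made by activated T cells, measured 6.60, 6.46 and 7.48 in jak3i skin, against 11.79, 11.76 and 10.46 in PBS pump skin. The array nearest to the other group was replicate 3 in both cases, and the fall was 22.5-fold. Cxcr6, a receptor of tissue T cells, measured 6.02, 6.75 and 6.46 in jak3i skin, against 9.99, 10.23 and 9.37 in PBS pump skin, a fall of 3.45 (SE 0.34). Without PBS pump replicate 2, 7 of the 8 members still passed.

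Interferon gamma and its targets fell as a group, 22 of 23 tested members (6.32% of all genes were lower) with a median of -2.92. The arrays of the groups did not overlap for any of the 23, where 11.9% of all genes tested were lower without overlap. Ifng itself, the cytokine gene, measured 4.67, 4.65 and 4.37 in jak3i skin, against 6.36, 6.40 and 7.13 in PBS pump skin. The jak3i arrays were at background and the fall was at least 2.38-fold (adjusted p = 3.1e-07). Ubd, a ubiquitin-like protein induced by interferon gamma, had the largest fall of all genes named here. It measured 5.32, 4.81 and 5.07 in jak3i skin, against 11.39, 11.45 and 10.87 in PBS pump skin, at least 58.0-fold lower (adjusted p = 2.1e-10). Gbp8, a guanylate binding protein of cell defence, measured 5.49, 5.45 and 5.35 in jak3i skin, against 9.89, 10.24 and 10.21 in PBS pump skin, a 25.7-fold fall. Igtp, whose promoter holds both motifs, measured 8.83, 8.39 and 9.02 in jak3i skin, against 12.29, 12.30 and 12.85 in PBS pump skin. Its difference was -3.74 (SE 0.63, adjusted p = 5.2e-05), so the gene stayed well above background in jak3i skin. Irf1, with a GAS match in its promoter, measured 9.19, 8.77 and 9.52 in jak3i skin, against 11.19, 11.07 and 11.42 in PBS pump skin, a 4.18-fold fall. The member that did not pass, chosen after its values were seen, was Ido1 (a tryptophan degrading enzyme), with a difference of -0.99.

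All 22 tested genes of the type I interferon antiviral list were lower (6.32% of all genes were), with a median of -1.95. Without PBS pump replicate 2 all 22 passed again. Oasl2, an oligoadenylate synthetase-like protein, measured 5.54, 5.49 and 6.32 in jak3i skin, against 9.04, 9.09 and 9.65 in PBS pump skin. Xaf1, a partner of apoptosis inhibitors, measured 9.23, 8.72 and 9.10 in jak3i skin, against 11.20, 11.13 and 11.67 in PBS pump skin. The falls were 11.1-fold (adjusted p = 2.2e-07) and 4.99-fold (adjusted p = 2.2e-07). The other probe set of Xaf1 differed by -0.70. Usp18, a brake on the type I interferon receptor, fell by 2.39 (SE 0.30), and Ifih1, a sensor of viral RNA, by 1.39 (SE 0.17). In 1 gene of the list the difference from another treatment passed its own test, as described further on.

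Antigen presentation genes were lower at smaller folds, where 6.32% of all genes were lower. For MHC class I and the immunoproteasome, 12 of 12 members fell with a median of -1.42. Tap1 and Tap2 form the pump that loads peptides, and fell 3.33-fold and 3.04-fold. Tap2 measured 9.24, 9.27 and 9.27 in jak3i skin, against 10.81, 10.89 and 10.89 in PBS pump skin, the tightest groups of the list's named genes. The heavy chain genes H2-K1 and H2-D1 fell 3.12-fold and 2.14-fold, and probe sets of such related genes can share signal. For MHC class II, 7 of 9 members fell with a median of -0.87. H2-Ab1, a class II beta chain, measured 10.46, 10.75 and 10.65 in jak3i skin, against 11.69, 11.69 and 11.29 in PBS pump skin, a 1.92-fold fall (adjusted p = 3.7e-06). Ciita, the factor that switches on class II genes, measured 6.93, 7.11 and 6.95 in jak3i skin, against 8.31, 7.86 and 8.18 in PBS pump skin. It fell 2.17-fold, and Cd74 (the invariant chain) and H2-Eb1 fell 1.82-fold and 1.72-fold.

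Components of the pathway that the drug targets changed less than its targets. Of 7 tested gamma chain cytokines and receptors, 5 fell with a median of -0.61 (6.32% of all genes were lower). Il2rb, the beta chain shared by the interleukin 2 and interleukin 15 receptors, measured 5.61, 5.89 and 5.80 in jak3i skin, against 7.55, 7.50 and 7.04 in PBS pump skin, a 3.02-fold fall (adjusted p = 7.8e-10). Its other probe set differed by -0.36. Il15, the cytokine, measured 8.05, 8.22 and 8.10 in jak3i skin, against 8.03, 8.32 and 8.16 in PBS pump skin. The arrays overlapped and the difference of -0.05 (SE 0.17) did not pass. Il15ra, which presents interleukin 15, fell 1.40-fold, with 8.70 to 8.81 in jak3i skin and 9.21 to 9.27 in PBS pump skin. Il4ra and Il21r fell 1.87-fold and 1.52-fold. Jak3 itself was below the filter on low signal, at 5.59 to 5.61 in jak3i skin and 5.47 to 5.599 in PBS pump skin. Of 9 tested JAK and STAT genes, 4 were lower (6.32% of all genes were) and the list median was -0.23. Stat2 measured 6.89, 6.27 and 6.63 in jak3i skin, against 8.52, 8.65 and 9.24 in PBS pump skin, and Irf9, its partner, 9.10, 8.82 and 8.97 in jak3i skin, against 10.19, 10.36 and 10.46 in PBS pump skin. Both are interferon target genes, and fell 4.63-fold and 2.59-fold. Stat3 and Jak2 fell 1.39-fold and 1.29-fold, while Jak1 differed by 0.03 (SE 0.11) and did not pass.

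Feedback inhibitors divided. Of 11 tested genes of the SOCS and STAT5 feedback list, 5 fell with a median of -0.27 (6.32% of all genes were lower). The number was 3 without PBS pump replicate 2. It was 2 when any 1 of jak3i replicates 1 and 2 and PBS pump replicates 1 and 3 was left out. Socs1 measured 5.85, 5.75 and 5.68 in jak3i skin, against 6.63, 6.63 and 7.34 in PBS pump skin, a 2.15-fold fall (adjusted p = 6.8e-06). Cish, a STAT5 target, measured 9.18, 9.51 and 8.90 in jak3i skin, against 9.96, 10.29 and 9.83 in PBS pump skin. It fell 1.78-fold (adjusted p = 0.011), and without PBS pump replicate 2 the difference was -0.70 (adjusted p = 0.062), and the call was also lost without jak3i replicate 3. Socs2, also a STAT5 target, differed by -0.27 (SE 0.30) with overlapping arrays and did not pass. Pim1 and Pim2, survival kinases, fell 1.31-fold and 1.35-fold, and neither passed when any 1 of those same 4 arrays was left out.

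Checkpoint and regulatory T cell genes fell in 9 of 11 tested members (6.32% of all genes were lower), with a median of -1.16. Of these genes 7 passed as lower and 1 as higher without PBS pump replicate 2, with Ikzf2, a transcription factor of regulatory T cells named for this result, as the higher one. Cd274, which encodes the checkpoint ligand PD-L1, measured 8.38, 7.95 and 8.04 in jak3i skin, against 10.09, 9.80 and 10.42 in PBS pump skin, a 3.94-fold fall (adjusted p = 2.3e-05). Pdcd1lg2, the ligand PD-L2, fell 2.60-fold, and Havcr2 and Icos, regulatory receptors on the surface of T cells, fell 2.50-fold and 2.23-fold. The arrays of the groups did not overlap in these 4 genes. They were named for the smallest p of their list, and 29.7% of all genes tested did not overlap.

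Of 20 macrophage and monocyte genes, 4 were lower and none higher (6.32% of all genes were lower), with a median of -0.44, against 8 lower without jak3i replicate 3 and 2 without PBS pump replicate 1. Ccl2, a chemokine for monocytes, measured 7.31, 7.39 and 7.999 in jak3i skin, against 10.12, 9.60 and 10.60 in PBS pump skin, a 5.80-fold fall (adjusted p = 3.9e-07). Fcgr4, an Fc receptor, measured 5.55, 5.93 and 6.29 in jak3i skin, against 9.02, 7.67 and 8.13 in PBS pump skin, a 5.08-fold fall. Ccr2, the receptor for CCL2, fell 2.82-fold, a call lost without PBS pump replicate 1. Cd86, a costimulatory ligand, fell 1.55-fold and did not pass without PBS pump replicate 2 (adjusted p = 0.14), PBS pump replicate 1 or jak3i replicate 1 or 2. The mean of the macrophage list was 8.87, 8.76 and 9.73 in jak3i skin, against 10.16, 9.47 and 9.23 in PBS pump skin. Replicate 3 of jak3i was thus above 2 of the 3 PBS pump arrays. In the dendritic and Langerhans list 5 of 10 genes fell and 1 rose (6.32% and 9.67% of all genes), so the rise is near the share of all genes. The T cell chemokine Ccl17 measured 5.83, 6.18 and 5.89 in jak3i skin, against 6.85, 8.58 and 9.15 in PBS pump skin, a 4.68-fold fall. Ccl22, which shares its receptor, fell 2.71-fold, and the dendritic cell factor Batf3 1.81-fold. Epcam, an adhesion protein of Langerhans cells and of epithelium, fell 1.68-fold. The gene that rose, chosen after its values were seen, was Cd209a (a lectin of dermal dendritic cells), with a difference of 1.29.

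Other blood cells gave little. No B or plasma cell gene of 5 passed in limma, 0 of them at an unadjusted p under 0.05, and Jchain (the joining chain of secreted antibodies) ranged from 8.19 to 8.54 in jak3i skin and from 7.22 to 10.55 in PBS pump skin. Of 8 mast cell genes, 1 was higher, where 9.67% of all genes were. It was the protease gene Cpa3, at 10.66, 10.14 and 10.93 in jak3i skin and 9.88, 9.90 and 8.98 in PBS pump skin. That call (adjusted p = 0.044) was lost when jak3i replicate 1 or 3 or PBS pump replicate 3 was left out. Of 7 neutrophil genes, 1 was lower, where 6.32% of all genes were. It was Il1b, an inflammatory cytokine, at 7.40, 7.99 and 8.33 in jak3i skin and 9.04, 8.20 and 8.96 in PBS pump skin. Its arrays overlapped, and leaving out jak3i replicate 1 or PBS pump replicate 1 or 3 ended the call.

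Hair fibre genes gave no call. None of 12 hair shaft keratins, 10 keratin associated proteins and 12 inner root sheath genes passed in limma, 0 of them at an unadjusted p under 0.05, and the list medians were 0.08, -0.02 and 0.06. These medians were -0.35, -0.41 and -0.44 without PBS pump replicate 2, and 0.56, 0.60 and 0.76 with the mean of the muscle list in each array as a covariate, and again no member passed. Without PBS pump replicate 3, 1 inner root sheath gene passed as lower. Krt31, a keratin of the hair cortex, measured 9.40, 11.62 and 11.17 in jak3i skin, against 9.85, 9.23 and 11.97 in PBS pump skin, a difference of 0.38 (SE 1.11). Krt71, a keratin of the inner root sheath, measured 10.88, 12.89 and 12.67 in jak3i skin, against 12.40, 10.80 and 13.38 in PBS pump skin, a difference of -0.04 (SE 1.21). With SEs above 1 unit, changes near 2-fold in either direction were not detectable in these genes. The mean of the hair shaft list ran from 9.01 to 10.61 in jak3i arrays and from 8.97 to 11.22 in PBS pump arrays, and the melanocyte list, whose cells pigment the growing hair, from 8.19 to 9.45 and from 7.15 to 9.91. The lowest array of each group was the same in the hair shaft and melanocyte means, replicate 1 of jak3i and replicate 2 of PBS pump. Of 9 melanocyte genes, 1 passed as higher, where 9.67% of all genes did. It was Sox10 (a neural crest factor), which rose 1.47-fold, while 2 other probe sets of the gene differed by -0.25 and -0.08. Without PBS pump replicate 3, 3 melanocyte genes passed as higher. Of 14 hair matrix regulators, 1 passed as higher (9.67% of all genes did). It was Fgf7, a growth factor of the dermal papilla, 1.55-fold higher. Fgf7 did not pass without PBS pump replicate 2 (adjusted p = 0.12), PBS pump replicate 1 or jak3i replicate 1 or 3. In this list 3 genes passed as higher and 1 as lower without PBS pump replicate 3. Bulge and resting follicle genes included 5 of 12 higher and 1 lower (9.67% and 6.32% of all genes). The number higher was 2 when any 1 of jak3i replicates 2 and 3 and PBS pump replicates 1 and 3 was left out. Krt15, a keratin of bulge cells, measured 13.37, 13.52 and 13.44 in jak3i skin, against 12.56, 13.35 and 11.94 in PBS pump skin, a 1.77-fold rise. Nfatc1, a factor of resting stem cells, rose 1.57-fold, and Fgf18, a signal of the resting phase, 3.23-fold with overlapping arrays. Krt15 did not pass without PBS pump replicate 3, Fgf18 without that array, PBS pump replicate 1 or jak3i replicate 2 or 3, and the 1.60-fold fall of Id2 (an inhibitor of differentiation factors) without PBS pump replicate 2 or jak3i replicate 1 or 3.

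Keratins of injured or activated epidermis were lower. Of 11 tested injury and alarm genes 5 fell (6.32% of all genes were lower), with a median of -1.24, against 3 without PBS pump replicate 3. Krt16 measured 9.71, 8.64 and 8.82 in jak3i skin, against 11.70, 11.60 and 11.63 in PBS pump skin, a 6.01-fold fall (adjusted p = 0.0034). Krt17 measured 11.41, 12.03 and 11.58 in jak3i skin, against 12.87, 12.87 and 12.51 in PBS pump skin, a 2.11-fold fall. Both gene products are keratins of wounded skin, and KRT17 is also found in the follicle. Stfa3, a protease inhibitor of inflamed skin, measured 9.39, 8.96 and 8.07 in jak3i skin, against 11.32, 10.14 and 13.10 in PBS pump skin. Its 6.55-fold fall did not pass without PBS pump replicate 3 (adjusted p = 0.053). Epidermal differentiation genes gave 1 call in 18, near the 6.32% of all genes called lower. It was the protease gene Klk7, 1.67-fold lower, and 3 members passed without PBS pump replicate 2. All 18 differences were negative and the median was -0.48. In the interleukin 1 family 5 of 13 members fell and 1 rose (6.32% and 9.67% of all genes). Without PBS pump replicate 1 or 3, 3 fell. Il1f6, an epithelial cytokine, fell 3.72-fold. Il18bp, the decoy of interleukin 18, fell 3.75-fold, and Il18r1, its receptor, 2.68-fold. Il33, an alarm cytokine, rose 1.67-fold, at 9.76, 9.38 and 10.08 in jak3i skin against 9.28, 9.07 and 8.65 in PBS pump skin, and did not pass without jak3i replicate 3 or PBS pump replicate 3. Cell division genes gave 2 lower calls in 18 (6.32% of all genes were lower). Bub1b (a spindle checkpoint kinase) and Plk1 (a mitotic kinase) were 1.63-fold and 1.57-fold lower with overlapping arrays. Neither passed without jak3i replicate 1 or 3 or PBS pump replicate 3, and 4 members passed without PBS pump replicate 2.

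Fat, sebaceous gland and vessel genes were higher in jak3i skin. Of 13 adipocyte genes 6 rose and none fell (9.67% of all genes were higher), with a median of 0.63. The number that rose was again 6 without PBS pump replicate 2 but 3 without jak3i replicate 1. Adipoq, the fat hormone adiponectin, measured 12.78, 11.84 and 11.74 in jak3i skin, against 10.63, 10.92 and 10.94 in PBS pump skin, a 2.45-fold rise (adjusted p = 0.00076). Fabp4, a fatty acid carrier, measured 13.56, 13.32 and 13.48 in jak3i skin, against 12.87, 12.67 and 12.77 in PBS pump skin, a 1.60-fold rise (adjusted p = 2.9e-05). Plin4, which coats lipid droplets, rose 2.31-fold and did not pass without jak3i replicate 1 (adjusted p = 0.054), and Pparg, the master factor of fat cells, rose 1.95-fold. Of 9 sebaceous gland genes 6 rose and 1 fell (9.67% and 6.32% of all genes), with a median of 0.73. Without jak3i replicate 1 or PBS pump replicate 3, 3 rose. Scd3, a desaturase of sebaceous cells, measured 11.11, 10.41 and 10.26 in jak3i skin, against 8.38, 8.77 and 7.29 in PBS pump skin, a 5.45-fold rise. The gene that fell was Krt79, a keratin of the gland's duct, at 12.96, 12.99 and 12.58 in jak3i skin and 13.84, 13.83 and 13.39 in PBS pump skin. Mgst1, a detoxifying enzyme of the gland, rose 1.28-fold.

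Of 10 endothelial genes 7 rose and 1 fell (9.67% and 6.32% of all genes), with a median of 1.03. The same counts were found without PBS pump replicate 2. Emcn, a sialomucin of capillaries and veins, measured 8.84, 8.92 and 9.46 in jak3i skin, against 7.12, 8.09 and 7.004 in PBS pump skin, a 3.18-fold rise (adjusted p = 3.9e-07). Cdh5, the junction protein VE-cadherin, measured 8.97, 8.62 and 9.61 in jak3i skin, against 7.73, 7.75 and 7.46 in PBS pump skin, a 2.68-fold rise. Esam and Kdr, a junction protein and the main receptor for VEGF, rose 2.45-fold and 2.04-fold. The gene that fell, chosen after its values were seen, was Icam1, an adhesion molecule induced by inflammation, 2.002-fold lower. Aplnr, the apelin receptor of vessels, measured 10.68, 10.24 and 11.67 in jak3i skin, against 8.89, 8.54 and 8.45 in PBS pump skin, a 4.70-fold rise (adjusted p = 0.00028). Its other probe set differed by 0.90.

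Of 18 dermal matrix genes 5 rose and none fell (9.67% of all genes were higher), with a median of 0.70. The number that rose was 2 without jak3i replicate 3, 3 without jak3i replicate 1 or PBS pump replicate 3 and 8 without jak3i replicate 2. In the list 1 member passed as lower without PBS pump replicate 2, Timp1 (a protease inhibitor, named for this result), and 1 without jak3i replicate 3. Cthrc1, a secreted protein of matrix-forming fibroblasts, measured 8.49, 7.90 and 10.04 in jak3i skin, against 7.07, 6.43 and 6.24 in PBS pump skin, a 4.70-fold rise (adjusted p = 0.00072). Lum, a collagen binding proteoglycan, measured 12.65, 12.62 and 13.45 in jak3i skin, against 11.91, 12.13 and 11.40 in PBS pump skin, a 2.13-fold rise. In both genes jak3i replicate 3 was the highest array. Eln (elastin) and Dcn (decorin) rose 2.16-fold and 1.41-fold, and neither passed without jak3i replicate 3 or PBS pump replicate 3, nor Eln without jak3i replicate 1. The mean of the matrix list was 11.67, 11.37 and 12.34 in jak3i skin, against 11.34, 11.01 and 10.88 in PBS pump skin. Jak3i replicate 3 was also the highest jak3i array in the means of the macrophage list, and its part in the matrix result beyond the values given was not tested.

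The remaining largest rises were in genes of varied roles. Cyp2g1, a cytochrome P450, measured 12.02, 10.77 and 10.69 in jak3i skin, against 8.77, 7.58 and 8.22 in PBS pump skin, a 7.83-fold rise (adjusted p = 0.012) that did not pass without jak3i replicate 1 (adjusted p = 0.072). Slc26a7, an anion transporter, measured 9.80, 8.81 and 8.60 in jak3i skin, against 6.36, 7.29 and 6.11 in PBS pump skin, a rise of 2.48 (SE 0.45). Its other probe set differed by 0.50. Krt24, an epithelial keratin, measured 8.93, 9.46 and 9.64 in jak3i skin, against 6.92, 7.43 and 7.05 in PBS pump skin, a 4.62-fold rise (adjusted p = 1.1e-05). The groups stood apart by more than 1 unit in Slc26a7 and Krt24. Scgb1a1, a secretoglobin, rose 4.58-fold, and Npr3, a clearance receptor for natriuretic peptides, 5.00-fold, with jak3i arrays spread from 7.66 to 10.28. The 2 other probe sets of Npr3 differed by 0.88 and 1.49. Clock genes gave 3 calls higher and 1 lower in 16 (9.67% and 6.32% of all genes). None was higher without jak3i replicate 1 or PBS pump replicate 1, 1 without PBS pump replicate 2 and 5 without jak3i replicate 3. The repressor Bhlhe40 fell 1.76-fold, and Cry2 (a repressor), Tef (an output factor) and Nr1d2 (a nuclear receptor) rose 1.44-fold, 1.82-fold and 1.57-fold. None of 12 glucocorticoid and metallothionein genes passed in limma, with 1 higher and 1 lower at an unadjusted p under 0.05. Without jak3i replicate 2, 2 passed as lower, and without PBS pump replicate 2, 1 passed as higher.

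Skeletal muscle genes, from the thin muscle sheet under mouse skin, varied between the PBS pump arrays. The mean of the 20 muscle genes was 12.65, 12.40 and 12.63 in jak3i skin, against 11.55, 7.71 and 11.90 in PBS pump skin. The list median was 2.29 with all arrays and 0.74 without PBS pump replicate 2. With that array 1 member passed as higher (9.67% of all genes did), and none without it. The counts were 9 without PBS pump replicate 3 and 2 without PBS pump replicate 1, and none without any 1 jak3i array. That member, Myh4 (a fast myosin heavy chain), measured 13.24, 13.93 and 13.79 in jak3i skin, against 8.62, 7.86 and 13.74 in PBS pump skin, so its arrays overlapped, and its call was lost in every omission other than that of PBS pump replicate 3. Ckm, muscle creatine kinase, measured 13.01, 12.95 and 12.80 in jak3i skin, against 11.51, 7.16 and 12.16 in PBS pump skin, and did not pass (adjusted p = 0.064). A pair of the 10 largest rises had the same low array. Aqp4, a water channel of fast muscle, measured 9.19, 8.46 and 8.64 in jak3i skin, against 6.38, 4.36 and 7.32 in PBS pump skin. Ppp1r27, a phosphatase regulator, measured 9.39, 9.33 and 9.63 in jak3i skin, against 8.25, 5.13 and 8.23 in PBS pump skin. Without PBS pump replicate 2 their differences were 1.91 (adjusted p = 0.11) and 1.21 (adjusted p = 0.34), and neither passed. Aqp4 was also lost without jak3i replicate 1, and Ppp1r27 without any 1 jak3i array. The 2 other probe sets of Aqp4 differed by 0.17 and 1.36 with all arrays. With the muscle mean of each array as a covariate, 622 genes were higher and 496 lower, among them 589 of the 1320 and 486 of the 863. The cytotoxic, interferon gamma and MHC class I counts were as before with that covariate, at 11 of 11, 22 of 23 and 12 of 12, while the chemokine count was 6 of 8 and the matrix count 2 of 18.

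**Figure D3:**
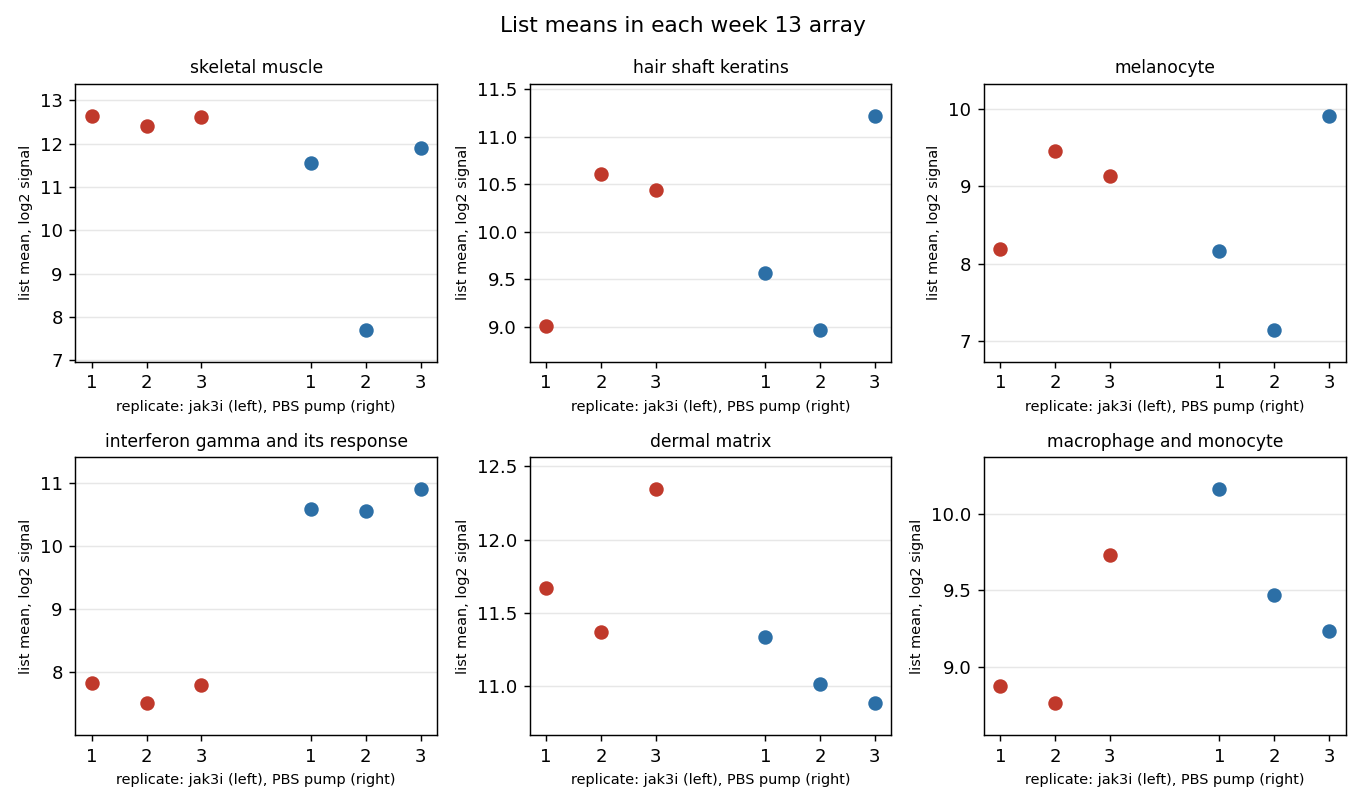
Mean log2 signal of the tested genes of 6 lists (vertical axes, not starting at 0) in each week 13 array, with the 3 jak3i replicates (red) left of the 3 PBS pump replicates (blue). PBS pump replicate 2 stands alone in the muscle panel at 7.71, the interferon gamma panel separates the groups (7.51 to 7.83 in jak3i, 10.57 to 10.90 in PBS pump), and the hair shaft and melanocyte panels overlap.

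Week 13 skin under the other inhibitors was compared to see where jak3i differed. Against its own PBS group, jak12i changed 2986 genes (21.9%) and il15rb 3511 genes (25.7%), and no array was shared between these comparisons. Cxcl9 differed by -5.45 under jak3i, -4.46 under jak12i and -4.39 under il15rb, and Gzmb by -4.67, -3.75 and -3.45. The test of the difference between treatments passed for neither gene. Over all genes, 1 (0.00733%) differed between jak3i and jak12i and 1 (0.00733%) between jak3i and il15rb, and 899 and 940 had an unadjusted p under 0.05.

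The gene that separated the kinase inhibitors was Cthrc1. In jak12i skin it measured 6.21, 5.99 and 6.02, against 8.58, 8.54 and 7.002 in PBS gavage skin, a difference of -1.97, where jak3i gave 2.23. The differences were 4.20 apart (SE 0.65, adjusted p = 0.0020). The PBS groups were unlike for this gene, and with PBS gavage as its control jak3i gave 0.77 (adjusted p = 0.32). The gene that separated jak3i from the antibody, named for that result, was Ifi27l2a, an interferon induced protein. It measured 10.77, 10.83 and 10.44 in jak3i skin, against 12.38, 12.30 and 12.72 in PBS pump skin, a fall of 1.79 (SE 0.25). In il15rb skin it measured 12.25, 12.67 and 12.37, against 12.62, 11.75 and 12.43 in PBS ip skin, a difference of 0.16. The differences were -1.95 apart (SE 0.35, adjusted p = 0.035), and the call was lost when any 1 PBS pump array was left out. In the whole type I interferon list, 22 of 22 genes fell under jak3i, 15 under jak12i (10.3% of all genes) and 8 under il15rb (10.6% of all genes), with medians of -1.95, -1.18 and -0.55. Oasl2, for example, differed by -3.48, -1.93 and -0.86, and neither test of the difference passed (adjusted p = 0.64 against jak12i and 0.13 against il15rb).

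Hair shaft keratins gave no call of 12 under jak3i, 10 lower under jak12i (10.3% of all genes) and none under il15rb, with medians of 0.08, -3.26 and -1.83. Krt31 measured 6.74, 6.02 and 6.06 in jak12i skin, against 9.45, 9.06 and 11.23 in PBS gavage skin. The difference of Krt31 between the treatments was 4.02 (SE 1.57, adjusted p = 0.64), so it did not pass, and the same held for every member of the list.

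**Figure D4:**
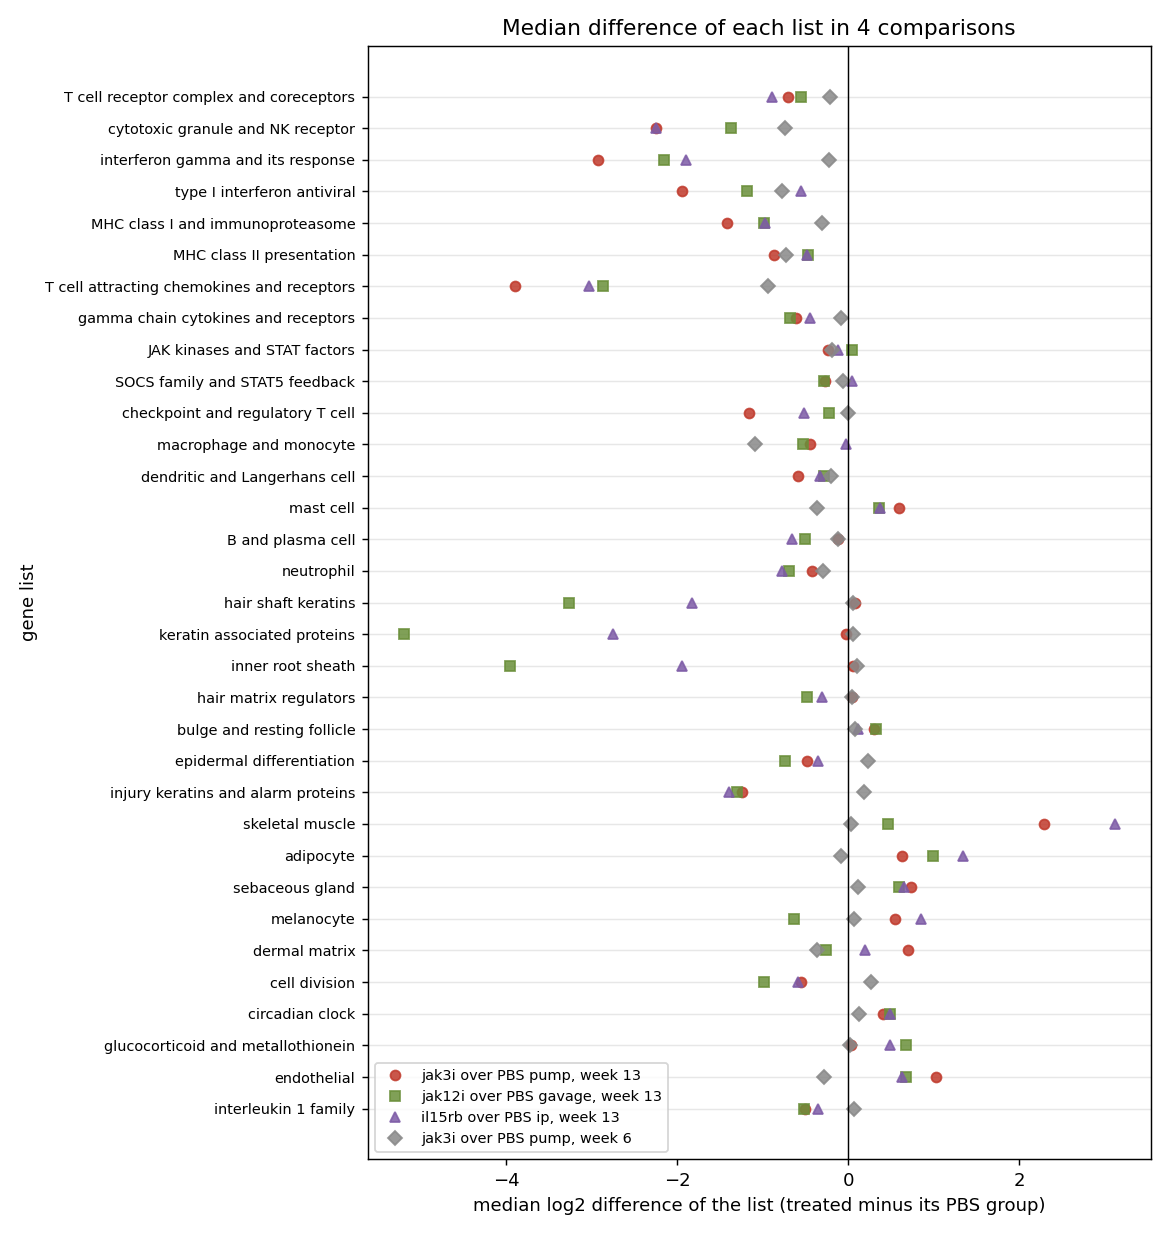
Median log2 difference (horizontal axis) of the tested members of each gene list in 4 comparisons, each treated group minus its own PBS group: jak3i week 13 (red circles), jak12i week 13 (green squares), il15rb week 13 (purple triangles) and jak3i week 6 (grey diamonds). The chemokine list lies at -3.90 for jak3i at week 13 and the hair shaft list near 0, where jak12i lies at -3.26.

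At week 6 the same treatment changed 559 genes (4.10%), 62 higher (0.454%) and 497 lower (3.64%). The change at week 13 differed from that at week 6 for 1256 genes (9.20%), 844 higher (6.18%) and 412 lower (3.02%). The arrays of the weeks differ in their spread of signal, so levels are compared within a week. That spread can also enter the difference between the weeks. Of the 1256 genes 67.2% were higher, and under quantile normalization 56.4% of 1233. Interferon gamma genes gave 1 call in 23 at week 6, and 21 of the 23 were lower by the test of the difference. Cxcl9 measured 5.78 to 7.76 in week 6 jak3i skin (5 arrays), against 8.13, 8.65 and 8.15 in week 6 PBS pump skin, a difference of -1.57 that did not pass. Gzmb measured 6.48 to 7.04 in week 6 jak3i skin, against 6.94, 7.33 and 7.29 in week 6 PBS pump skin. The fall of Gzmb at week 13 was larger by 4.26 (SE 0.54, adjusted p = 3.3e-06) and that of Cxcl9 by 3.87 (SE 0.99, adjusted p = 0.010).

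Other groups were already lower at week 6. For type I interferon genes, 12 of 22 fell at week 6 and 6 of 22 were lower by the test of the difference. Oasl2 measured 4.57 to 5.06 in week 6 jak3i skin, against 6.70, 6.75 and 7.32 in week 6 PBS pump skin, a difference of -2.14 (adjusted p = 0.00052). For MHC class II, 7 of 9 fell at each week, and H2-Ab1 differed by -0.72 at week 6 and -0.94 at week 13, with no test passed between them (adjusted p = 0.50). Macrophage genes gave 12 of 20 lower at week 6 and 4 of 20 at week 13. By the test of the difference 3 members were higher and 2 lower (6.18% and 3.02% of all genes). Endothelial genes gave no rise at week 6, and 8 of 10 were higher by that test. Emcn differed by -0.34 at week 6, and its change at week 13 was 2.01 higher (SE 0.28, adjusted p = 2.1e-05).

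**Figure D5:**
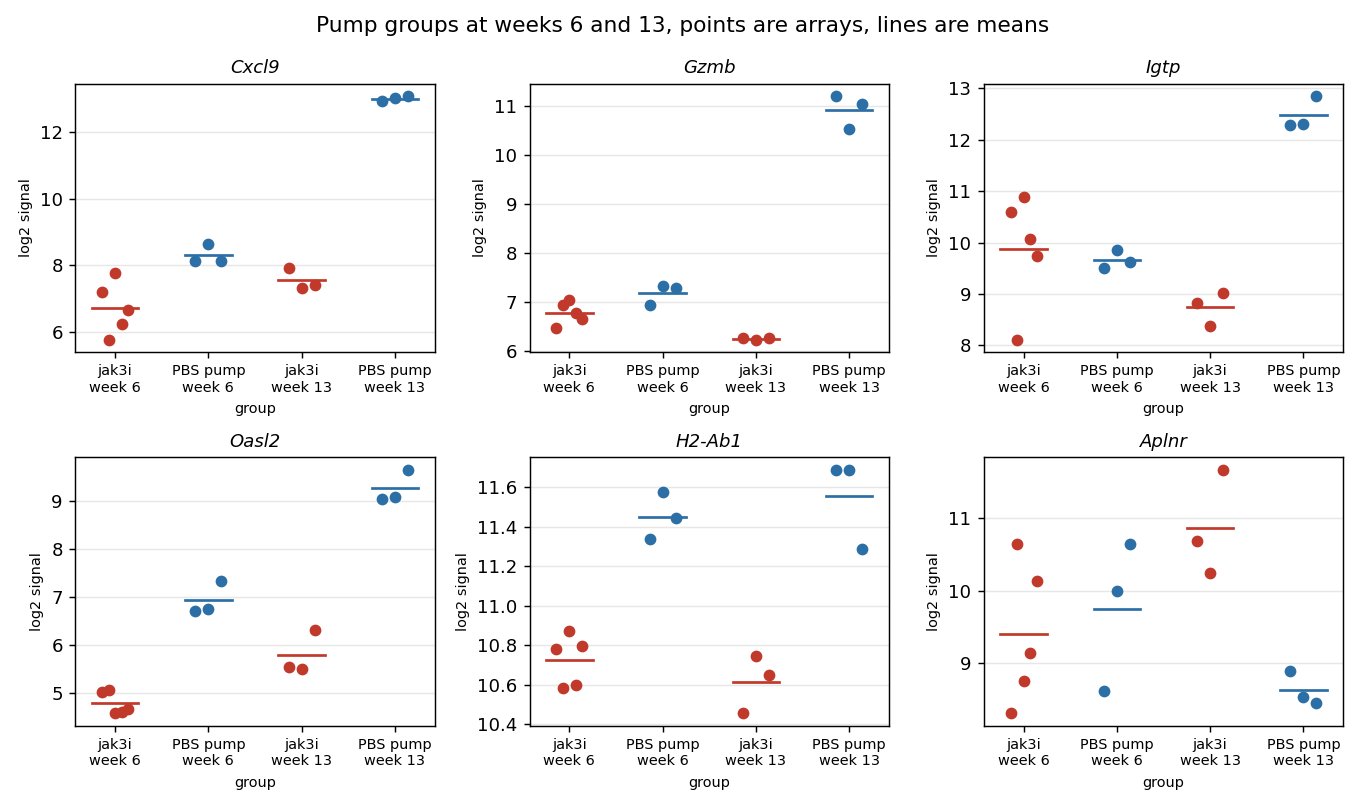
Log2 signal (vertical axes, not starting at 0) of 6 genes in the pump groups, with week 6 jak3i (5 arrays), week 6 PBS pump (3), week 13 jak3i (3) and week 13 PBS pump (3) from left to right. Points are arrays and lines are means. Within week 13, every jak3i array of Cxcl9, Gzmb and Igtp lies below every PBS pump array, and H2-Ab1 is lower in jak3i within each week.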

How the data were processed

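RNA of whole skin was extracted with a miRNeasy kit, labelled with biotin by in vitro transcription and hybridised to Affymetrix mouse arrays, per the labels. The deposited values are log2 signals of 45101 probe sets on 48 arrays, made by the authors with RMA (version not given), per the submitters' processing notes. Arrays have no read depth, and their number per group limits precision. No value column was left out (0 unused). Groups came from titles, and 1 array whose title and treatment label conflict was placed in no group.

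Of the probe sets, 34958 named 1 gene, 932 several and 9211 none, by the platform annotation given, with 34754 symbols updated through the Entrez identifier. For 18194 genes the probe set with the highest mean was taken, and the 13648 above 6.70 (the table's median) in at least 3 arrays were kept. Group means of 47 arrays in 13 groups were fitted with limma 3.58.1 (R 4.3.3) and empirical Bayes moderation. P-values were adjusted by Benjamini-Hochberg over all genes within each comparison at 0.05. Differences between treatments or weeks were tested as interaction contrasts in the same fit. A gene whose lower group's mean was under 5.38 has a fold given as a lower bound. In simulated data for jak3i against PBS pump over 13648 genes, 78.5% of genes changed 1.5-fold and 94.5% changed 2-fold were recovered, and 4.23% of calls were false. The simulated noise was independent between genes. Array effects shared by many genes, such as the low muscle signal of PBS pump replicate 2, were therefore absent. These shares check the fit and do not give the recovery or false calls of the real comparison.

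Named genes were the 10 largest rises and 10 largest falls whose arrays did not overlap, a panel of 20 genes, and the 4 members with the smallest p (fewer where fewer were tested) from each of 33 hand-written lists, 148 in all. The members and lists were chosen with earlier results of these data known. Lists are described by counts and medians. Promoter windows came from RefSeq, and Python 3.11.15 was used for tables and plots. Replicate numbers did not pair the groups: deviations from the group means of same-numbered arrays correlated at -0.001, -0.017 and -0.098. Alternatives were arrays left out in turn, other PBS groups, other sets of arrays, quantile normalization, array medians, other filters, the mean of all probe sets, a replicate block, a muscle covariate and the conflicting array as titled.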

Additional observations from a re-analysis of the deposited data

Results flagged for a closer look

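The change under jak3i was set against the change under another treatment or at another week by an interaction test, and these results passed it. Between jak3i and jak12i 1 gene differed, Cthrc1, by 4.20. Between jak3i and il15rb 1 gene differed, Ifi27l2a, by -1.95. Between week 13 and week 6 of jak3i 1256 genes differed. Among the genes of largest change at week 13, the change was more negative at week 13 than at week 6 by -5.82 for Ubd, -4.93 for Gzma, -4.89 for Gbp8, -4.26 for Gzmb, -4.05 for Cxcl10, -3.96 for Igtp, -3.94 for Cxcl11, -3.87 for Cxcl9, -3.35 for Ccl5 and -2.63 for Ms4a4b. It was more positive by 2.89 for Cthrc1, 2.59 for Aplnr, 2.33 for Scd3 and 1.64 for Krt24.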

How the results depend on the processing

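Leaving out each of the 6 arrays in turn gave 1398 to 1999 genes called, of which 745 to 1251 were higher and 625 to 808 lower, against 2183, 1320 and 863. The fewest were called without jak3i replicate 3, and 1451 without jak3i replicate 1. Of named calls, 62 of 72 falls and 18 of 33 rises passed in all 6 omissions. With week 13 arrays alone 1304 genes passed, 730 higher and 574 lower, and with the 6 arrays alone 496, 212 higher and 284 lower, where fewer arrays estimate the spread. With the muscle covariate 1118 passed, 622 higher and 496 lower. With PBS gavage in place of PBS pump 759 were higher (50.6% of calls, against 60.5%), and with PBS ip 48.7% of calls were higher. A replicate block gave 1832 calls. Genes differing between jak3i and jak12i numbered 1 to 13 over the omissions, 0 with week 13 arrays alone, 2 under quantile normalization and 4 with no filter. Between jak3i and il15rb they numbered 0 to 10 over the omissions (0 without any 1 of the PBS pump arrays), 0 with week 13 arrays alone, with the replicate block and with the conflicting array as titled, 2 with no filter and 4 with the muscle covariate. Between weeks they numbered 660 to 1392 over the omissions, the fewest without jak3i replicate 3, and 772 without PBS pump replicate 3. Their share higher was 67.2% with all arrays, 58.2% (without PBS pump replicate 3) to 70.5% over the omissions and 56.4% under quantile normalization. For these counts the cause was not tested. Of 2791 single-gene values under alternatives, 2544 stayed on their side of the threshold, 194 lost a call and 53 gained one. None changed sign while called. Of 1254 list counts, 170 moved by over 1.5 times.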

Other observations

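Some genes outside the lists had large differences and were chosen after their values were seen. AA467197 measured 7.41, 6.78 and 7.32 in jak3i skin, against 11.01, 10.25 and 9.93 in PBS pump skin, a 9.37-fold fall (adjusted p = 1.3e-06). The epithelial gene 2610528A11Rik measured 5.88, 6.13 and 4.88 in jak3i skin, against 9.53, 6.89 and 10.84 in PBS pump skin, and its PBS pump arrays were spread over nearly 4 units. Klk6, a kallikrein protease, measured 9.14, 9.28 and 9.12 in jak3i skin, against 12.38, 11.43 and 11.09 in PBS pump skin, a 5.49-fold fall. Clec7a, a receptor for fungal glucans on myeloid cells, measured 7.50, 7.73 and 9.17 in jak3i skin, against 11.21, 10.15 and 11.13 in PBS pump skin, with jak3i replicate 3 nearest to the PBS pump arrays. Pyy, a peptide hormone of the gut, measured 7.22, 7.06 and 6.67 in jak3i skin, against 9.20, 9.61 and 10.21 in PBS pump skin, a 6.46-fold fall (adjusted p = 0.0047).

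A smaller group had higher signals in jak3i skin, also chosen after their values were seen. Gucy1a1, a subunit of the nitric oxide receptor, measured 8.09, 8.13 and 8.50 in jak3i skin, against 6.47, 7.01 and 5.63 in PBS pump skin, a 3.66-fold rise (adjusted p = 1.2e-06). Its 2 other probe sets differed by 0.56 and 0.59. Ccn3, a matrix-associated signalling protein, measured 10.15, 9.53 and 10.57 in jak3i skin, against 8.12, 8.93 and 6.91 in PBS pump skin, a 4.27-fold rise. Sfrp2, a secreted modulator of WNT signals made by fibroblasts, measured 9.16, 9.39 and 11.08 in jak3i skin, against 8.23, 8.44 and 6.67 in PBS pump skin, with jak3i replicate 3 the highest array. Muscle genes such as Cox8b measured 11.55, 10.86 and 11.20 in jak3i skin, against 10.17, 6.96 and 10.07 in PBS pump skin, with PBS pump replicate 2 the lowest array.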
